A study of Mus musculus with 10 samples.

Results

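The 10 genes described here encode the ligands, receptors and latency proteins of TGF-β, a secreted growth factor. They are the ligands Tgfb1, Tgfb2 and Tgfb3, the receptors Tgfbr1, Tgfbr2 and Tgfbr3, and the latent TGF-β binding proteins Ltbp1, Ltbp2, Ltbp3 and Ltbp4. These 10 were chosen by name from the 55536 genes counted, with earlier results of these data known, so counts over them are descriptions. All 10 passed the filter on low counts in each comparison. RNA was sequenced from bladders of C57BL/6 mice in 10 libraries, of which 4 were wild type (WT), 3 lacked osteomodulin (OMD-/-) and 3 lacked PRELP (PRELP-/-, a genotype that the labels spell PRLEP-/-). OMD and PRELP are small leucine-rich proteoglycans, secreted matrix proteins of a family known to bind growth factors. Per the study's methods both knockouts are constitutive, with the coding sequence replaced by a β-galactosidase gene under the gene's own promoter, so every cell type lacked the protein and every knockout cell in which that promoter is active carries the reporter. No drug or other treatment is named, and the age, the sex and any pooling of the mice are not given in the sources used here. The labels describe excised and homogenised bladder tissue, whereas the study's text speaks of isolated bladder epithelium and other group sizes, and the labels were followed here. The question put to these libraries was how bladder gene expression differs when OMD or PRELP is missing.

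TGF-β is made as a precursor and leaves the cell in a latent form, held by its own propeptide. The latent binding proteins bind that propeptide through a disulfide bond and tether it to fibrillin and fibronectin fibres, from which integrins and proteases release the ligand. The freed ligand joins the type II receptor TGFBR2 to the type I receptor TGFBR1, which phosphorylates Smad2 and Smad3, while TGFBR3, or betaglycan, presents the ligand to them. In the bladder, TGF-β is known for its part in matrix deposition by fibroblasts and in the shift of epithelial cells toward a mesenchymal form.

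The libraries held 20391437 to 46269079 counts each. Prelp had 4848 to 15890 counts in the WT libraries and 46 to 74 in PRELP-/-. Omd had 0, 1, 8 and 12 counts in WT and 0 in each OMD-/- library, so its level could not be used to check that label. Markers of urothelium led the marker lists in every library, with a summed level of 10982 to 26467 CPM (counts scaled to a common library total, by TMM) for umbrella and intermediate cells, while fibroblast markers summed to 942 to 1698 CPM and smooth muscle markers to 132 to 1005 CPM, so stromal RNA was read in every library. Several libraries stood apart in ways the labels do not explain. In PRELP-/- replicate 1 the umbrella markers summed to 26467 CPM, against 15510.0 to 16103 CPM in the other 2 PRELP-/- libraries, and the fibroblast markers to 992 CPM against 1479.5 to 1481 CPM. Y-linked genes summed to 188, 163, 0 and 0.0443 CPM in WT replicates 1 to 4, and to 18.1, 0.805 and 0.730 CPM in OMD-/- and 120, 18.7 and 18.5 CPM in PRELP-/- replicates 1 to 3, so these reads were not balanced over the groups. The smooth muscle markers summed to 222 and 211 CPM in WT replicates 1 and 2 and to 1005 and 877 CPM in WT replicates 3 and 4. Nuclear-retained RNAs such as Neat1 and Malat1 summed to 1445 to 1709 CPM in WT, 297 to 365 CPM in OMD-/- and 203 to 257 CPM in PRELP-/-. All 6 of that list fell in both knockouts, where 15.1% of all genes fell in OMD-/- and 5.89% in PRELP-/-. The list was set with earlier results of these data known, so this count is a description and no test. The split in these sums runs with genotype in all 10 libraries, so library making and genotype cannot be told apart by it.

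All 10 genes are protein coding, and their positions are those of GENCODE vM21 on build GRCm38. Among the ligands, Tgfb1 (ENSMUSG00000002603) lies on chromosome 7 from 25687002 to 25705077 on the plus strand, Tgfb2 (ENSMUSG00000039239) on chromosome 1 from 186622792 to 186705989 on the minus strand, and Tgfb3 (ENSMUSG00000021253) on chromosome 12 from 86056745 to 86079041 on the minus strand. Of the receptors, Tgfbr1 (ENSMUSG00000007613) lies on chromosome 4 from 47353222 to 47414931 on the plus strand, Tgfbr2 (ENSMUSG00000032440) on chromosome 9 from 116084293 to 116175360 and Tgfbr3 (ENSMUSG00000029287) on chromosome 5 from 107106570 to 107289629, both on the minus strand. Ltbp1 (ENSMUSG00000001870) lies on chromosome 17 from 75005568 to 75392512 and Ltbp3 (ENSMUSG00000024940) on chromosome 19 from 5740904 to 5758532, both on the plus strand. Ltbp2 (ENSMUSG00000002020) lies on chromosome 12 from 84783212 to 84876532 and Ltbp4 (ENSMUSG00000040488) on chromosome 7 from 27305136 to 27337692, both on the minus strand. Tgfb3 lies opposite Ttll5 (26.0 CPM) without sharing exon bases.

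The start regions of the members differ in sequence, and 4 of them are shown because they range from GC-rich to TATA-bearing, 3 of them from members that rose in OMD-/- and the Tgfb2 window from a member that did not pass. RefSeq windows on GRCm38.p6, from 250 bases before to 50 after a start, covered 8 of the 10 members in 12 windows, with Tgfb3 and Tgfbr3 not included. Each is printed 5′ to 3′ on the gene's own strand, with capitals at GC boxes (GGGCGG), the boxes bound by the TATA binding protein (TATAAA), CREB and ATF sites (TGACGTCA), the CAGA elements of Smad3 and Smad4 (CAGACA) and AP-1 sites (TGANTCA), each searched on both strands, where matches may overlap. The Tgfb1 window (chr7:25686752-25687051, plus strand), that of Tgfb2 (chr1:186705940-186706239, minus strand), the upstream window of Ltbp1 (chr17:75005279-75005578, plus strand) and the upstream window of Ltbp4 (chr7:27337563-27337862, minus strand) read as follows.
Tgfb1: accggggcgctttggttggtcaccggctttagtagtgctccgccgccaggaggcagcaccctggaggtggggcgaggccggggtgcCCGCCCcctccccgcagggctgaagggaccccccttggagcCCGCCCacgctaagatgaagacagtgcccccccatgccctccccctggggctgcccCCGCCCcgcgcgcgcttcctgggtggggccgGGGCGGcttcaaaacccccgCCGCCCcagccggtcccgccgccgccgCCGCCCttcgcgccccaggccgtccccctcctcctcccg
Tgfb2: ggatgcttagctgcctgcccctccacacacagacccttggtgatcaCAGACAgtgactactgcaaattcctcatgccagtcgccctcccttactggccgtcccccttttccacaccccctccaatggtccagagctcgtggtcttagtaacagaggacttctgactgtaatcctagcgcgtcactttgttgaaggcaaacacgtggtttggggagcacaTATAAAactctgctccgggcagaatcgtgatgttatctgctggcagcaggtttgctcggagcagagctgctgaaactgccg
Ltbp1: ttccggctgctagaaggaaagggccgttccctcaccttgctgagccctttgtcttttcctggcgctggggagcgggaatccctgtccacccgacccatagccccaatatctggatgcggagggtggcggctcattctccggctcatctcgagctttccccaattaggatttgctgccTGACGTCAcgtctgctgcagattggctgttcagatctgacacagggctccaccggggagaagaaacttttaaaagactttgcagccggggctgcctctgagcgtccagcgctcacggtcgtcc
Ltbp4: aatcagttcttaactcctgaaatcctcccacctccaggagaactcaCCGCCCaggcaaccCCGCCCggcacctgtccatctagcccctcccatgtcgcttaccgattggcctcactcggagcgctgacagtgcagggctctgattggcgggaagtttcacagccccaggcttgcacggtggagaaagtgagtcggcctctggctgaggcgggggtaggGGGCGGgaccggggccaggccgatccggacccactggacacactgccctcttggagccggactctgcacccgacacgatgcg
The Tgfb1 window held 6 GC boxes and was 77.0% G and C, against a median of 52.7% over all 32851 windows of the table, of which 35.7% hold at least 1 GC box. The Tgfb2 window was 54.3% G and C, with no GC box, 1 TATA box (in 13.6% of all windows) and 1 CAGA element (in 21.0%). A CREB and ATF site, present in 1.79% of all windows, stood in the Ltbp1 window, and 3 GC boxes in that of Ltbp4. An AP-1 site, found in 7.81% of all windows, occurred in the Ltbp3 window alone among the members' windows, overlapping a CAGA element. These matches are letters in a window, and binding was not measured.

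In WT bladder a binding protein and a receptor led the members, and the 3 ligands stood below both. Levels of different genes are compared here as CPM per kilobase of merged exon, given as mean ± SD over the 4 WT libraries. Ltbp4 was the most abundant member at 68.3 ± 16.5 CPM per kb, above 96.0% of 13063 protein-coding genes, followed by Tgfbr2 at 34.0 ± 1.01 CPM per kb. Ltbp3 (14.7 ± 1.75), Tgfb1 (12.0 ± 3.19), Tgfbr3 (10.3 ± 1.85) and Tgfbr1 (8.88 ± 0.692 CPM per kb) came next, and the ranges of these neighbours overlapped, so their order is not fixed by the spread. Tgfb3 (5.12 ± 0.445), Tgfb2 (2.38 ± 0.431), Ltbp1 (1.56 ± 0.0831) and Ltbp2 (0.153 ± 0.0211 CPM per kb) closed the order, each below the range of the one before it. This order holds for merged exon length and was not tried with the longest transcript. The 2 lengths were 5042 and 2573 bases in Tgfb1 but 3383 bases each in Tgfb3, so close places could change. Ltbp2, the member of its family that is known to bind fibrillin but not latent TGF-β, rested on only 26 to 61 counts per WT library. Ltbp4 and Tgfbr2 also led, and Ltbp2 was lowest, in each of the 6 knockout libraries. Members between them changed places, as the plot of levels by library shows. On average Tgfbr1 (12.9 CPM per kb) stood above Tgfbr3 (12.3) in PRELP-/-, but this came from replicate 1 (16.4 and 7.17). In PRELP-/- replicates 2 and 3 Tgfbr3 (14.2 and 15.6 CPM per kb) stood above Tgfbr1 (10.3 and 12.0).

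**Figure D1:**
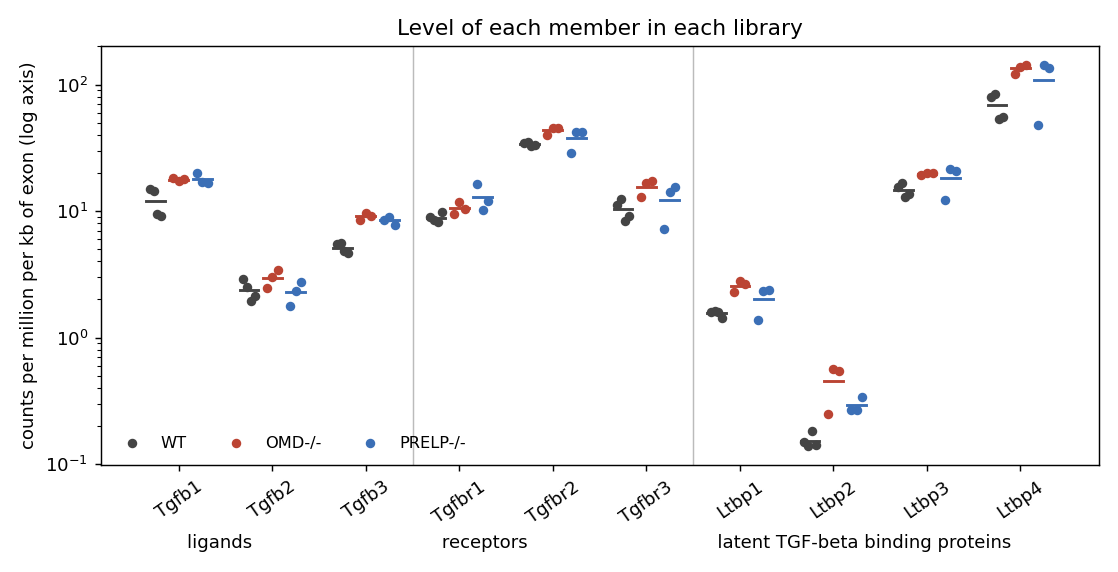
Level of each of the 10 members in each library, in CPM per kilobase of exon on a log axis, with WT in grey, OMD-/- in red and PRELP-/- in blue; points are libraries and bars group means. Ltbp4 stood highest and Ltbp2 lowest in every group, and the low PRELP-/- point of Tgfbr3, Ltbp1, Ltbp3 and Ltbp4 is replicate 1.

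Bladders without OMD had more RNA of nearly the whole set. Of the 10 members, 8 rose in OMD-/- against WT and none fell, in edgeR's quasi-likelihood fit with p adjusted by Benjamini-Hochberg over 16647 genes, of which 29.4% passed, 14.3% as higher and 15.1% as lower. The 2 others, Tgfb2 and Tgfbr1, were also higher on average without passing. The median log2 fold change of the members was 0.58 and that of all genes tested was -0.00. In 8 of 10 members every OMD-/- library lay above every WT library and in none below, where the ranges of 38.9% of all genes did not overlap and 19.2% lay above. Without OMD-/- replicate 3, 5 of 10 passed. With all 3 groups in 1 fit, 3 of 10 passed (Tgfb3, Ltbp1 and Ltbp2), and with close libraries summed in pairs 3 of 10 (Tgfb3, Ltbp1 and Ltbp4). In bulk samples that hold several cell types, a gene that rises per cell and a cell type that makes up more of the sample cannot be told apart.

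Among the ligands, Tgfb3, an isoform known from mesenchymal tissue, changed most evenly. It stood at 18.5, 18.8, 16.3 and 15.8 CPM in WT replicates 1 to 4 and at 28.9, 32.8 and 30.7 CPM in OMD-/-. The groups did not come near each other, and the rise was 1.78-fold (log2 0.83 ± 0.10 SE, adjusted p = 0.000261 by edgeR's quasi-likelihood test). Tgfb3 passed in each of the 17 other fits tried for this comparison. Tgfb1, the isoform made by most cells, stood at 75.9, 73.0, 47.4 and 45.97 CPM in WT and at 91.3, 86.6 and 89.8 CPM in OMD-/-. Its WT libraries fell into a higher and a lower pair, and the OMD-/- libraries lay above both. The rise was 1.47-fold (log2 0.56 ± 0.17 SE, edgeR adjusted p = 0.0336), and it depended on which libraries were used. Against WT replicates 1 and 2 alone it was 1.20-fold (adjusted p = 0.0305) and against replicates 3 and 4 alone 1.91-fold (adjusted p = 3.5e-05), while leaving out WT replicate 3 or 4 or any 1 OMD-/- library gave adjusted p of 0.0618 to 0.0977. Tgfb2, which is known from epithelium and developing tissue, stood at 16.8, 14.7, 11.2 and 12.4 CPM in WT and at 14.2, 17.3 and 19.7 CPM in OMD-/-. These ranges overlapped, and the difference did not pass (1.24-fold, 95% interval of the log2 fold change -0.05 to 0.66, edgeR adjusted p = 0.181).

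Of the receptors, Tgfbr2 and Tgfbr3 rose and Tgfbr1 did not pass. Tgfbr2, the type II receptor that binds the ligand first, stood at 282, 288, 269 and 274 CPM in WT and at 327, 369 and 369 CPM in OMD-/-. All 3 knockout libraries lay above all 4 WT libraries, by 1.28-fold (log2 0.35 ± 0.08 SE, edgeR adjusted p = 0.00926). Without OMD-/- replicate 3 the adjusted p was 0.0518. Tgfbr3, the co-receptor betaglycan, stood at 73.7, 81.2, 54.9 and 60.1 CPM in WT and at 84.1, 109 and 112 CPM in OMD-/-. The lowest OMD-/- library came close to the highest WT library, and the rise was 1.51-fold (log2 0.59 ± 0.15 SE, edgeR adjusted p = 0.0126). It no longer passed without OMD-/- replicate 2 (adjusted p = 0.0565) or replicate 3 (0.0622). Tgfbr1, the signalling type I receptor, stood at 58.5, 55.3, 54.0 and 64.2 CPM in WT and at 62.4, 77.4 and 68.1 CPM in OMD-/-. Here the ranges overlapped and the difference did not pass (1.20-fold, 95% interval of the log2 fold change 0.04 to 0.48, edgeR adjusted p = 0.0771), although it did without WT replicate 4 (adjusted p = 0.0417) or OMD-/- replicate 1 (0.0361).

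All 4 binding proteins rose in OMD-/-. Ltbp4, which is bound up with elastic fibres and is known to prefer TGF-β1, stood at 519, 548, 344 and 356 CPM in WT and at 789, 889 and 918 CPM in OMD-/-. The knockout libraries were far above both WT pairs, by 1.96-fold on average (log2 0.97 ± 0.16 SE, edgeR adjusted p = 0.00195). Against WT replicates 1 and 2 alone the rise was 1.62-fold (adjusted p = 0.000557) and against replicates 3 and 4 alone 2.47-fold (adjusted p = 2.24e-05). Ltbp1, which tethers latent TGF-β to fibronectin and fibrillin, stood at 17.0, 17.3, 17.0 and 15.4 CPM in WT and at 24.5, 29.7 and 28.4 CPM in OMD-/-. WT varied little, and the rise was 1.65-fold (log2 0.72 ± 0.10 SE, edgeR adjusted p = 0.000736), called in each of the 17 other fits. Ltbp3, which is known from bone and tooth formation, stood at 141, 152, 117 and 123 CPM in WT and at 174, 182 and 180.1 CPM in OMD-/-. It rose 1.34-fold (log2 0.43 ± 0.09 SE, edgeR adjusted p = 0.00721), with no overlap between the groups. Ltbp2 stood at 1.22, 1.13, 1.505 and 1.15 CPM in WT and at 2.03, 4.66 and 4.43 CPM in OMD-/-, which were 43, 110 and 97 counts. Its fold change of 2.97 was the largest of the set (log2 1.57 ± 0.31 SE, edgeR adjusted p = 0.00398) and the least precise, since OMD-/- replicate 1 was under 50% of the level of the other 2.

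**Figure D2:**
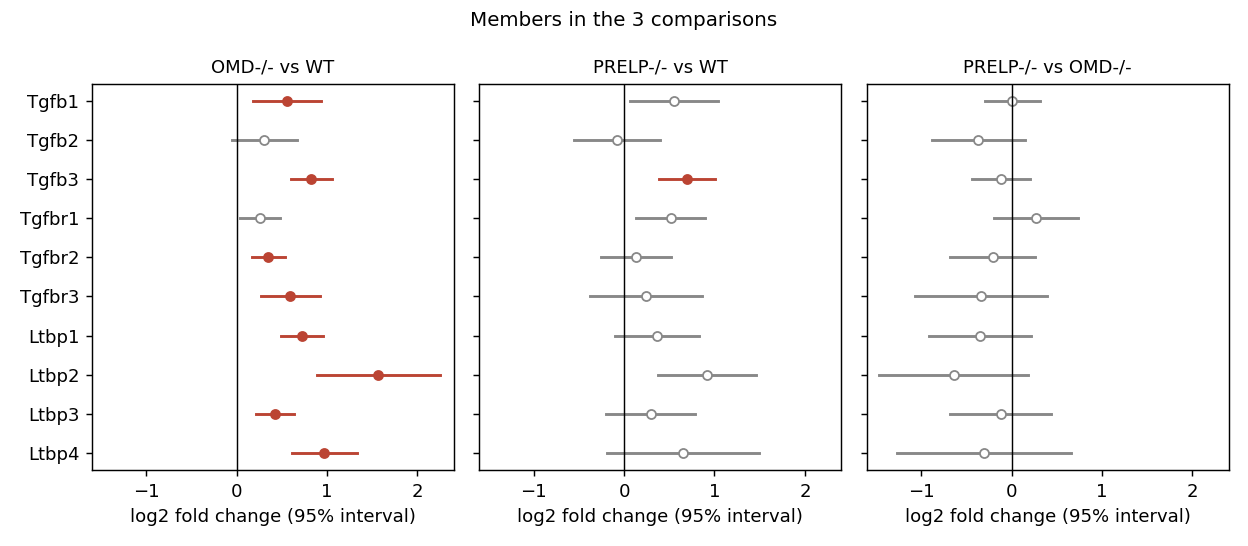
Log2 fold change with its 95% interval for each member in OMD-/- against WT, PRELP-/- against WT and PRELP-/- against OMD-/-; filled red points passed an adjusted p of 0.05 and open grey points did not. In OMD-/- 8 of 10 passed, in PRELP-/- 1 of 10, and between the knockouts every interval included 0.

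Within the binding proteins, the shares of Ltbp4 and Ltbp3 in OMD-/- lay outside their WT ranges. Shares are of the summed level per kb within 1 library and were described without a test, since the smallest two-sided exact permutation p of 4 against 3 libraries is 0.0571. Ltbp4 made up 80.3 ± 2.20% of the binding protein level in WT (SD, n = 4) and 85.5 ± 0.583% in OMD-/- (n = 3), with ranges of 78.4 to 82.3% and 84.9 to 86.0% that did not overlap. In PRELP-/- its share was 82.7 ± 4.58% and its range, 77.4 to 85.5%, overlapped that of WT. The low value was that of replicate 1, and replicates 2 and 3 (85.5 and 85.2%) lay above the WT range. The shares of Ltbp1 and Ltbp2 overlapped between OMD-/- and WT. The ratio of Ltbp3 to Ltbp4 was 0.194, 0.197, 0.243 and 0.246 in WT and 0.157, 0.146 and 0.140 in OMD-/-. In PRELP-/- replicates 1 to 3 it was 0.257, 0.152 and 0.154, the first above and the others below every WT library. Tgfb1 made up 61.0 ± 3.78% of the ligand level in WT, 59.5 ± 2.45% in OMD-/- and 62.4 ± 3.20% in PRELP-/-, so its lead did not differ beyond the spread. The ratio of Tgfb2 to Tgfb3 was 0.533, 0.456, 0.401 and 0.461 in WT, 0.287, 0.308 and 0.376 in OMD-/- and 0.212, 0.259 and 0.350 in PRELP-/-. All 6 knockout libraries lay below all 4 WT libraries in that ratio. Of 8 ratios computed within the families, 2 lay apart from WT in OMD-/- (Tgfb2 to Tgfb3 and Ltbp3 to Ltbp4) and 2 in PRELP-/- (Tgfb2 to Tgfb3 and Tgfb2 to Tgfb1). Among single genes, the ranges of 38.9% did not overlap with WT in OMD-/- and of 30.0% in PRELP-/-. No such share was computed for ratios of other genes, so these counts are not read as unusual. The ratio of Tgfb2 to Tgfb1 was 0.175 to 0.236 in WT and 0.0901 to 0.163 in PRELP-/-, and its OMD-/- values overlapped WT. Tgfbr2 held 64.0 ± 1.66% of the receptor level in WT and 62.5 ± 1.46% in OMD-/-. In PRELP-/- replicate 1 the receptors were unlike those of any other library, with Tgfbr1 at 31.2% of their level and 14.3 to 18.7% in the other 9 libraries.

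**Figure D3:**
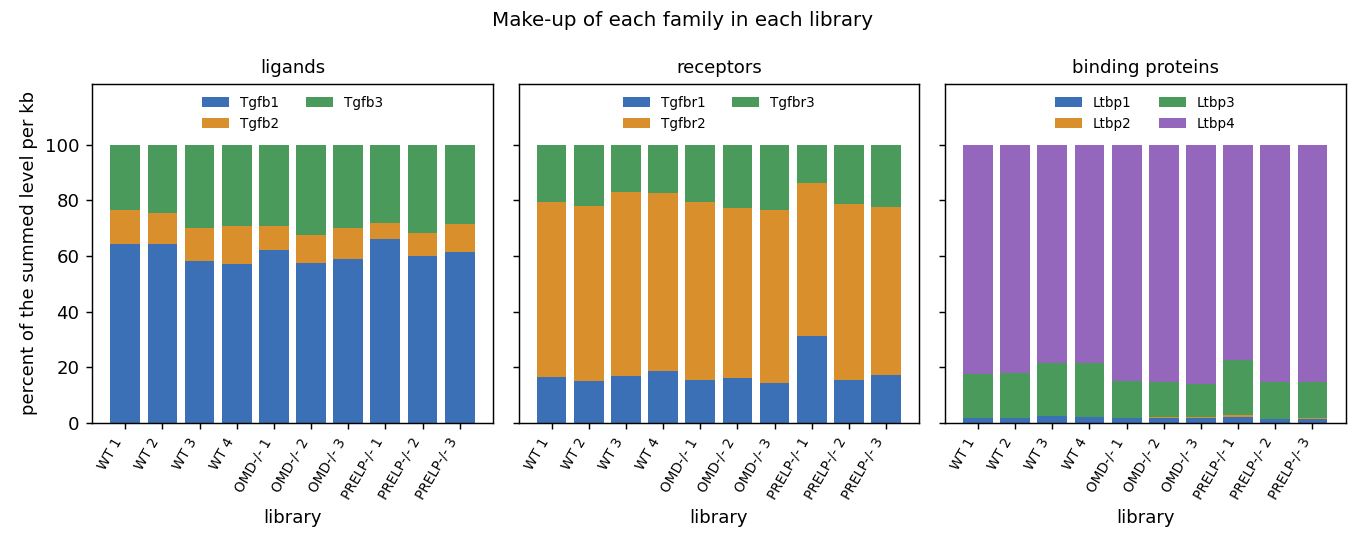
Percent of the summed level per kb that each member takes within the ligands, receptors and binding proteins, with a bar for each of the 10 libraries. Tgfb1, Tgfbr2 and Ltbp4 led their families in every library, and Tgfbr1 took 31.2% of the receptor level in PRELP-/- replicate 1.

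Bladders without PRELP gave a result that hung on 1 library. With all 3 PRELP-/- libraries, 1 of 10 members rose against WT and none fell, in the same edgeR fit adjusted over 16581 genes, of which 7.29% passed, 1.40% as higher and 5.89% as lower. Without PRELP-/- replicate 1, 8 of 10 rose, where 22.2% of 17120 genes passed and 10.7% as higher. The PRELP-/- libraries left in that fit, replicates 2 and 3, were a close pair that cannot be shown to be independent. With close libraries summed in pairs, 0 of 10 members and 13 of all genes passed. The member that passed with all libraries was Tgfb3, at 28.6, 30.6 and 26.4 CPM against 15.8 to 18.8 CPM in WT. That was a rise of 1.62-fold (log2 0.70 ± 0.14 SE, edgeR adjusted p = 0.0193), with every PRELP-/- library above every WT library. It no longer passed without WT replicate 3 or 4 or PRELP-/- replicate 2 or 3, where the adjusted p was 0.0529 to 0.0854. DESeq2 called 3 members (Tgfb3, Tgfbr1 and Ltbp2) and limma-voom with sample quality weights called 9. These fits also called more genes in all, 2925 by DESeq2 and 6973 by limma-voom, against 1209 in the edgeR fit. The OMD-/- and PRELP-/- comparisons share their WT libraries, so the 2 results are not independent of each other.

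In 3 other members the PRELP-/- and WT ranges did not overlap although the test was not passed, which makes 4 of 10 in all, each higher, where the ranges of 30.0% of all genes did not overlap and 13.6% lay above. Tgfb1 stood at 100.2, 85.7 and 84.4 CPM in PRELP-/-, with a 1.46-fold difference (edgeR adjusted p = 0.143). Tgfbr1 stood at 107, 67.1 and 78.3 CPM, a 1.43-fold difference (adjusted p = 0.102), and the highest of these was replicate 1. Ltbp2 stood at 2.21, 2.20 and 2.76 CPM, a 1.89-fold difference (adjusted p = 0.0536). Every PRELP-/- library of these genes lay above the highest WT library. Without replicate 1, Tgfbr1 (1.26-fold, adjusted p = 0.0481) and Ltbp2 (1.99-fold, adjusted p = 0.0257) passed and Tgfb1 did not (1.41-fold, adjusted p = 0.115).

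In 5 of the remaining 6, replicate 1 lay on the other side of WT from the other 2 PRELP-/- libraries. Ltbp4 stood at 307, 922 and 870.3 CPM in PRELP-/- replicates 1 to 3, so that replicate 1 lay below every WT library and the others above. The difference was 1.57-fold with all 3 (95% interval of the log2 fold change -0.19 to 1.49, edgeR adjusted p = 0.293) and 2.05-fold without replicate 1 (adjusted p = 0.00636). Tgfbr2 (237, 343 and 345 CPM), Tgfbr3 (46.9, 93.2 and 102 CPM), Ltbp1 (14.8, 24.8 and 25.3 CPM) and Ltbp3 (111, 196 and 188 CPM) followed the same form, with replicate 1 below all WT libraries. Their adjusted p was 0.286 to 0.659 with all 3 libraries, and without replicate 1 it was 0.0143, 0.0314, 0.00412 and 0.00934. Tgfb2 stood at 10.4, 13.6 and 15.8 CPM, the first below and the others within the WT range, and did not pass (0.949-fold, adjusted p = 0.846) with replicate 1 or without it (1.07-fold, adjusted p = 0.727). Replicate 1 was also the library with the highest umbrella marker sum and the lowest matrix anchor sum (2147 CPM, against 4243 to 4289 CPM in the other PRELP-/- libraries), and the part of its cell make-up in these levels was not tested.

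**Figure D4:**
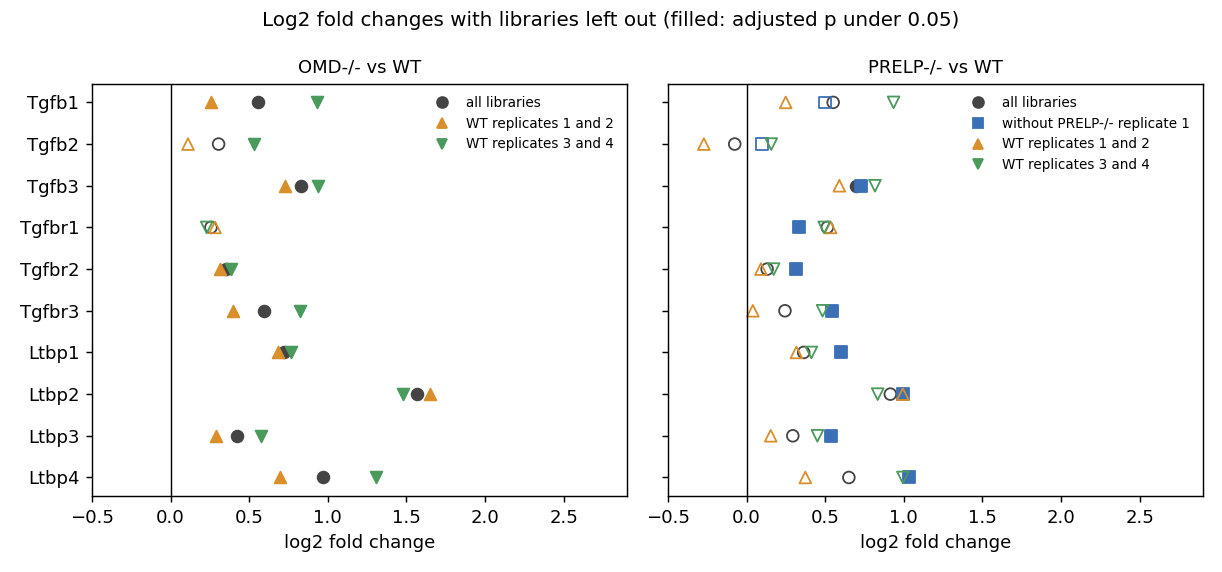
Log2 fold change of each member in OMD-/- against WT (left) and PRELP-/- against WT (right) with all libraries and with the named libraries only; filled symbols passed an adjusted p of 0.05. Against WT replicates 1 and 2 the changes of Tgfb1, Tgfbr3 and Ltbp4 were smaller than against replicates 3 and 4, and leaving out PRELP-/- replicate 1 brought 8 of 10 members past the test.

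Between the 2 knockouts no member passed. Of 15805 genes tested by edgeR's quasi-likelihood test 0.00633% passed (1 gene), 0 of 10 members passed, 0 of 10 had an unadjusted p under 0.05, and DESeq2 called 0. No member had ranges apart, against 15.1% of all genes, 6.39% with PRELP-/- above. Ltbp2 had the largest difference, 0.642-fold in PRELP-/- against OMD-/- (95% interval of the log2 fold change -1.47 to 0.19, edgeR adjusted p = 0.690). The interval was narrowest for Tgfb1 (-0.30 to 0.31) and wide for Ltbp4 (-1.26 to 0.65), so a difference of 2-fold either way is outside the first interval and inside the second in 1 direction. With the replicate number as a block, 0 of 10 members and 43 of all genes passed.

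The WT libraries themselves were not alike in the members. The mean of WT replicates 1 and 2 exceeded that of replicates 3 and 4 by 1.59 times in Tgfb1, 1.52 times in Ltbp4, 1.35 times in Tgfbr3 and 1.33 times in Tgfb2. In Tgfbr2, Ltbp1 and Tgfbr1 the same ratio was 1.05, 1.06 and 0.963. The endothelial markers summed to 462 and 472 CPM in WT replicates 1 and 2 and to 232 and 219 CPM in replicates 3 and 4. The smooth muscle markers split along the same line, and so did the Y-linked genes (188 and 163 CPM against 0 and 0.0443 CPM). These splits cannot be told apart in 4 libraries, and their part in the members' levels was not tested.

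Other genes of the pathway were read from lists whose members were set by role. Those lists were set with earlier results of these data known, so their counts are descriptions and no test. Of 19 tested proteins that anchor latent TGF-β in the matrix or release it, 12 rose and 0 fell in OMD-/- (median log2 fold change 0.59), where 14.3% of all genes rose and 15.1% fell. Among them Fn1, or fibronectin, rose from 376 to 775 CPM on average (log2 1.04), Tgm2, a crosslinking transglutaminase, from 276 to 550 CPM (log2 0.99), Mmp2, a gelatinase, from 408 to 801 CPM (log2 0.97), and Emilin1, an elastic fibre protein that restrains TGF-β processing, from 104 to 224 CPM (log2 1.11). Of 12 extracellular binders 5 rose and 1 fell in OMD-/-. Bgn, the proteoglycan biglycan, rose from 463 to 1152 CPM (log2 1.32), Fstl1 from 266 to 356 CPM (log2 0.42), the co-receptor Cd109 from 11.3 to 15.4 CPM (log2 0.44), and the endothelial co-receptor Eng from 78.1 to 132 CPM (log2 0.75). The 1 that fell was Bambi, a decoy receptor (log2 -0.41), named after its value was seen.

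Of 8 tested receptors for activins and bone morphogenetic proteins, 2 rose in OMD-/- and 0 fell, or 2 of 8 called beside 29.4% of all genes, namely Acvr1 (log2 0.45) and Bmpr2 (log2 0.36). Against the same background, 6 of 18 intracellular transducers and regulators rose and 1 fell. Smad3, the transducer that TGFBR1 phosphorylates, rose from 144 to 220.5 CPM (log2 0.62), and 2 known restraints on the pathway rose with it, Ldlrad4 from 9.12 to 18.7 CPM (log2 1.03) and Pmepa1 from 141 to 195 CPM (log2 0.46). Smad7, the inhibitory Smad, fell from 31.7 to 20.4 CPM (log2 -0.63). Of 20 genes widely used as readouts of TGF-β signalling, 8 rose and 4 fell in OMD-/-, with a median log2 fold change of 0.06. The collagens Col1a2 (log2 1.43) and Col3a1 (log2 1.21), the matrix protein Tgfbi (log2 0.98) and Fn1 rose. The 4 that fell, named after their values were seen, were Smad7 and the transcriptional inhibitors Id1 (log2 -0.93), Id2 (log2 -0.48) and Id3 (log2 -0.59), which are also targets of bone morphogenetic proteins.

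In PRELP-/- 7.29% of all genes passed with all 3 libraries, 1.40% as higher. Of these lists 0 of 19 anchors and activators, 1 of 12 binders (Bgn, log2 1.15), 0 of 8 receptors, 0 of 18 transducers and 3 of 20 targets passed, all higher. The 3 targets were Col1a2 (log2 1.13), Tgfbi (log2 0.86) and Col1a1 (log2 1.31), the last named after its value was seen. Without PRELP-/- replicate 1, 22.2% of all genes passed in either direction and 10.7% as higher. The counts higher there were 10 of 19, 1 of 12, 1 of 8, 6 of 18 and 5 of 20, and 2 of 20 targets passed as lower.

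Markers of other cell types differed between the groups as well, and their counts are to be read against the 14.3% of all genes that rose in OMD-/-. The marker lists too were set with earlier results known, so these counts are descriptions and no test. In OMD-/- 7 of 8 leukocyte markers rose (median log2 fold change 1.24), and their summed level was 421 to 483 CPM in WT and 734 to 1343 CPM in OMD-/-. Of 8 fibroblast markers 5 rose (median 0.49), with sums of 942 to 1040 CPM in WT and 1338 to 1698 CPM in OMD-/-. The endothelial markers summed to 219 to 472 CPM in WT and 523 to 610 CPM in OMD-/-, without overlap, yet 0 of 8 passed as higher and 1 fell, while 7 of 8 were above WT on average (median log2 0.68). The umbrella sums of all OMD-/- libraries (13701 to 18366 CPM) lay above all WT sums (10982 to 13190 CPM), with 9 of 9 markers higher on average and 3 called, and 2 of 6 basal markers rose. Smooth muscle and nerve markers gave 0 of 8 and 1 of 7 higher, and the smooth muscle sums overlapped (211 to 1005 CPM in WT and 238 to 441 CPM in OMD-/-). In PRELP-/- the fibroblast sum was 992 to 1481 CPM and the leukocyte sum 503.7 to 790 CPM, with 0 of 8 and 1 of 8 markers called. Of the other lists, 1 of 9 umbrella and 0 of 7 basal markers were called higher, 0 of 8 endothelial markers were called, and 1 of 7 nerve markers fell. Over all genes in this comparison 1.40% passed as higher and 5.89% as lower. The smooth muscle sums of PRELP-/- (132 to 176 CPM) lay below every WT sum, with 8 of 8 markers lower on average (median log2 fold change -1.82) and 0 of 8 called. The umbrella sums of PRELP-/- (15510.0 to 26467 CPM) lay above every WT sum. Without PRELP-/- replicate 1, 22.2% of all genes passed in either direction and 10.7% as higher, and 5 of 8 fibroblast and 4 of 8 leukocyte markers were called higher. In that fit 4 of 9 umbrella and 2 of 7 basal markers were also called higher. Endothelial, smooth muscle and nerve markers gave 0 higher there, with 1 endothelial and 1 nerve marker lower. No marker of these lists was at 0 in any library, and the part of each cell type in the members' levels was not tested.

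**Figure D5:**
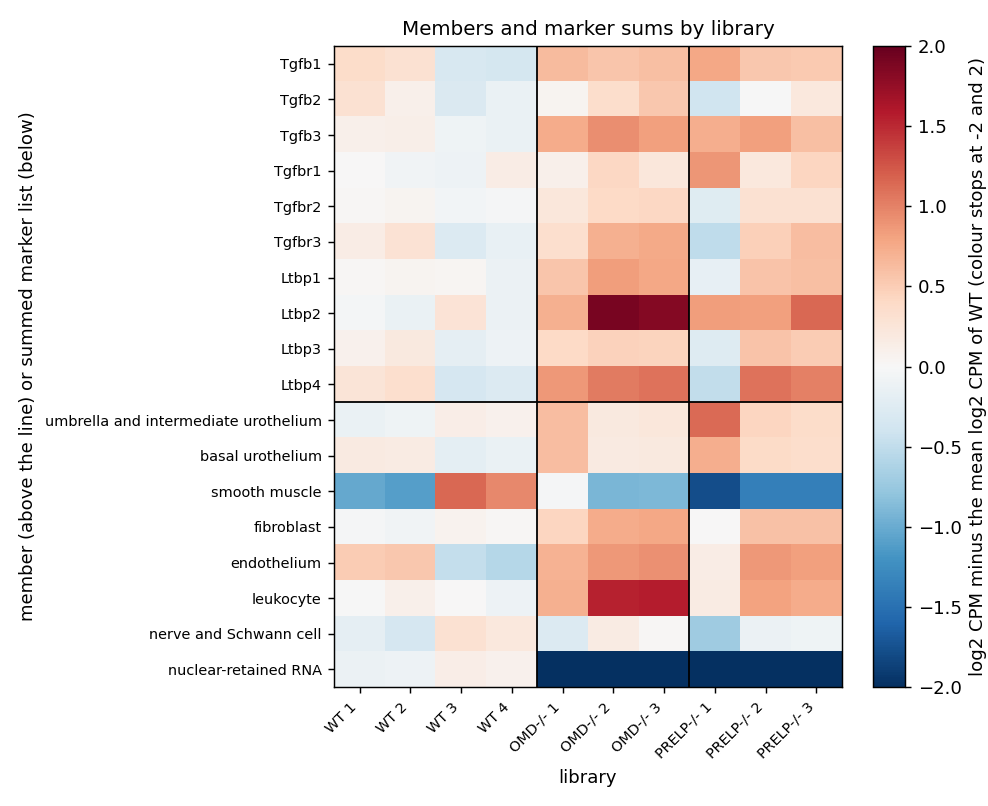
Log2 CPM of each member (above the line) and of each summed marker list (below) in the 10 libraries, as the difference from the mean of the WT log2 values, red for higher and blue for lower. PRELP-/- replicate 1 was below WT in Tgfbr2, Tgfbr3, Ltbp1, Ltbp3 and Ltbp4 and highest in umbrella markers, and the nuclear-retained RNAs were low in all 6 knockout libraries.

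The genes whose profile over the 10 libraries was most like that of each ligand were also sought. Likeness was the mean absolute difference of log2 CPM, each gene centred on its own mean, over 14475 genes with a mean of at least 1 CPM. Nearest to Tgfb1 were Glul (0.0726), Gas6 (0.0771) and Kcnd1 (0.0837), where the median gene differed by 0.363. For Tgfb2 they were Chsy1 (0.0723), Cxcl12 (0.0732) and Cdh11 (0.0750), with a median of 0.321. Tgfb3 ran closest to Tmem176b (0.0463), Vim (0.0654) and Mfge8 (0.0681), with a median of 0.412. Among the members themselves Tgfbr2 and Ltbp3 (0.0991) and Ltbp1 and Ltbp3 (0.129) were the nearest pairs, and Tgfb1 and Tgfb3 differed by 0.164. These distances rest on 10 libraries that share genotype, tissue make-up and depth.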

How the data were processed

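RNA of 10 bladder libraries was analysed from the count files that the authors deposited, each holding whole-number read counts for 55536 genes of 1 library, without normalization. Libraries were poly(A)-selected, marked for strand and carried molecular identifiers. The file headers name HISAT2 and featureCounts, while the submitters' processing notes list STAR 2.5.2b, featureCounts, DESeq2 and bcl2fastq, and the builds GRCm38 and hg38, with no role given. How strand and identifiers were used in counting is not given in the sources used here. Identifiers equal those of GENCODE vM21 (GRCm38). Deposited tables of the authors' own DESeq2 comparisons hold fold changes and p-values and were not used.

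Groups came from the titles. Nothing says that replicates came from separate mice, so p-values measure the spread between these libraries. WT replicates 1 and 2, WT 3 and 4, OMD-/- 2 and 3, and PRELP-/- 2 and 3 were close pairs. They differed by more than sampling noise (median chi-square 2.20 to 5.96 times its Poisson value), and each library was kept as 1 sample. That excess cannot show that the libraries of a pair were independent, so fits with close libraries summed in pairs are given as well. Same-numbered OMD-/- and PRELP-/- libraries deviated from their group means together (r = 0.301, 0.180 and 0.144 over 16942 genes). The same r was not computed for libraries with different numbers, so these r cannot show a pairing by replicate number. With WT the r were 0.0390, -0.0352 and 0.0236 for OMD-/- and -0.0576, 0.132 and -0.101 for PRELP-/-. These were of mixed sign, and no pairing by number was taken from them.

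Fits used the 2 groups of a comparison alone, in R 4.3.3 with edgeR 4.0.16 (TMM scaling, filterByExpr, robust quasi-likelihood test, two-sided, Benjamini-Hochberg adjustment over all genes tested, threshold 0.05). Confidence is 95%. CPM used TMM library sizes over all 10 libraries, and log2 CPM a prior count of 2. The code was tested on simulated data. Alternatives were DESeq2 1.42.0, RLE scaling, no filter, all 3 groups in 1 fit, a replicate block, each library left out, limma-voom (3.58.1) with sample quality weights, Y-linked genes as a covariate, close libraries summed in pairs, and, chosen after seeing the data, either WT pair alone. For the shares, the length of the longest transcript replaced merged exon length.

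The members and the 13 other gene lists were chosen with earlier results of these data known. Named were all 10 members, at most 4 genes with an adjusted p under 0.05 from each list in order of that p, the targeted genes, overlapping genes (1 of which is not reported here), and the 3 genes nearest each ligand in profile. Markers were read as counts and sums.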

Additional observations from a re-analysis of the deposited data

How the results depend on the processing

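In OMD-/- against WT every member kept its direction in all 17 other fits, and Tgfb3 and Ltbp1 passed in each. The members called numbered 8 with all libraries, 3 with all 3 groups in 1 fit, 3 with close libraries summed in pairs, 7 with no filter on low counts, and 5 to 8 with 1 library left out (5 without OMD-/- replicate 3). The genes called numbered 4899, and were 2485 with all 3 groups in 1 fit, 1658 with pairs summed and 2951 to 4850 with 1 library left out (3128 and 2951 without OMD-/- replicate 2 or 3). In PRELP-/- against WT the members called numbered 1, and were 3 by DESeq2, 2 with all 3 groups in 1 fit, 9 by limma-voom with sample quality weights, 0 with pairs summed, 0 with either WT pair alone and 0 to 8 with 1 library left out, the 8 being without PRELP-/- replicate 1. The genes called were 1209, and 2925 by DESeq2, 2485 with all 3 groups in 1 fit, 6973 by limma-voom, 757 with Y-linked genes as a covariate, 13 with pairs summed, 453 with WT replicates 3 and 4 alone, 119 with WT replicates 1 and 2 alone, and 475 to 3807 with 1 library left out. Between the knockouts the members called were 0, and 1 by limma-voom (Ltbp2, adjusted p = 0.0496), with 0 in each fit that left out a library. The genes called were 1, and 54 by DESeq2, 5 with no filter, 3 with all 3 groups in 1 fit, 1012 by limma-voom, 4 with the Y covariate, 0 with pairs summed (where the fit has 4 samples) and 1 to 36 with 1 library left out. The cause of these shifts was not tested, except that summing pairs leaves fewer samples.

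With the replicate number as a block, the fits gave 8 members and 3516 genes in OMD-/- against WT, 0 members and 115 genes in PRELP-/- against WT, and 0 members and 43 genes between the knockouts.

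Directions that turned were not called in any of these fits. The log2 fold change of Tgfb2 in PRELP-/- against WT was -0.08, and -0.22 to 0.10 with 1 library left out (higher without WT replicate 1 or PRELP-/- replicate 1), 0.17 by limma-voom and 0.16 with WT replicates 3 and 4 alone. Between the knockouts Tgfb1 went from 0.01 to -0.00112 with no filter, -0.068 to 0.045 with 1 library left out, -0.051 by limma-voom and -0.095 with the Y covariate. Under that covariate Tgfb2 was 0.085, Tgfbr2 0.10, Tgfbr3 0.26, Ltbp1 0.070, Ltbp2 0.30, Ltbp3 0.18 and Ltbp4 0.24. With 1 library left out Ltbp3 was -0.27 to 0.10 and Ltbp4 -0.56 to 0.050, each higher in PRELP-/- without its replicate 1, and Ltbp3 was 0.089 by limma-voom.

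With the longest transcript as length, Tgfb1 was 74.6% of the ligand level in WT, 73.6% in OMD-/- and 76.0% in PRELP-/-, Tgfbr2 was 62.0% of the receptor level in WT and 60.5% in OMD-/-, and Ltbp4 was 75.6% of the binding protein level in WT and 81.7% in OMD-/-. Leaving out 1 library of a group gave Tgfb1 shares of 59.9 to 62.2%, 58.1 to 60.5% and 60.6 to 63.7% in WT, OMD-/- and PRELP-/-, Tgfbr2 shares of 63.2 to 64.4%, 61.7 to 63.1% and 57.8 to 61.8%, and Ltbp4 shares of 79.6 to 80.9%, 85.2 to 85.7% and 81.3 to 85.3%. Depth limits Ltbp2 most, at 26 to 110 counts per library.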
